A study of Arabidopsis thaliana with 4 samples.

Results

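GID1A, GID1B and GID1C are the genes of the gibberellin receptors of Arabidopsis thaliana. They were chosen by name, but with earlier results of these data known. Every probe set that the platform annotation assigns to 1 of the 3 genes was taken. This gave 3 probe sets for 3 genes, out of 13286 loci named on the array. The probe sets were 259302_at for GID1A (AT3G05120), 251200_at for GID1B (AT3G63010) and 246782_at for GID1C (AT5G27320). None carries the suffix that the manufacturer gives to probe sets shared between transcripts.

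RNA of Col-0, a widely used laboratory strain, was hybridised to ATH1 GeneChips, on which each gene is read by a set of short oligonucleotide probes. There were 2 arrays of axillary buds from plants before decapitation, the removal of the main shoot apex, and 2 arrays of axillary shoots taken 24 h after it. All plants were soil-grown at 22 °C under continuous light, and no mutant or transgene was involved. Because the later time has no samples from plants left intact, the effects of decapitation, of the wound, of 24 h of growth and of a different mix of tissues cannot be told apart.

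Gibberellins are diterpenoid hormones that promote stem elongation, germination and flowering. A GID1 receptor that has bound gibberellin takes up a DELLA protein, a repressor of growth, and the F-box protein SLY1 then marks the DELLA protein for breakdown. The receptors are soluble proteins related to carboxylesterases that have lost the enzyme activity. The 3 Arabidopsis genes overlap in function, and in seedlings DELLA proteins are known to raise GID1A and GID1B transcripts while gibberellin lowers them, as part of a feedback on hormone response.

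The signals of all 3 receptor genes were lower in the shoots than in the buds. GID1B showed the largest fitted fall, 3.59-fold, while GID1A fell 2.19-fold and GID1C 2.14-fold. All 3 passed the test across 13648 probe sets (limma with Benjamini-Hochberg adjustment, adjusted p of 0.05 or less), in which 12.0% of the probe sets were lower in the shoots and 10.2% higher. GID1B and GID1C entered that test only through their bud signals, so the count of 3 is not support in itself, and the GID1C call was lost with no filter on low values (adjusted p = 0.0808). Both shoot arrays lay below both bud arrays for each of the 3 genes, which held for 35.5% of all tested probe sets.

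GID1A gave MAS5 signals, linear values in arbitrary units, of 227 and 195 in buds and 100.03 and 92.4 in shoots. Both bud values were high and close together, both shoot values were low, and the lower bud value was 1.95 times the higher shoot value. The mean fell from 211 ± 23.2 to 96.2 ± 5.37 (SD, n = 2 in each group), a log2 change of −1.13 with a standard error of 0.203 and an adjusted p of 0.00894. The 95% interval of the fold, buds over shoots, ran from 1.58 to 3.02.

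GID1B encodes the receptor that bound gibberellin most tightly of the 3 in biochemical work. Its bud signals were 92.7 and 71.8 and its shoot signals 22.67 and 22.73. The lower bud value was 3.16 times the higher shoot value, and the shoot arrays were nearly equal. The mean fell from 82.2 ± 14.8 to 22.7 ± 0.0363 (SD, n = 2 in each group), a log2 change of −1.85 with a standard error of 0.260, an adjusted p of 0.00464 and a 95% interval of 2.38 to 5.43 for the fold.

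GID1C had bud signals of 55.9 and 35.6 and shoot signals of 18.8 and 23.1. Bud array 1 was clearly the brightest of the 4, and the groups came nearer to each other than for the other receptors, the lower bud value being 1.54 times the higher shoot value. The mean fell from 45.8 ± 14.3 to 21.0 ± 3.00 (SD, n = 2 in each group), a log2 change of −1.10 with a standard error of 0.321, an adjusted p of 0.0429 and a 95% interval of 1.28 to 3.56 for the fold. The call for GID1C rested on the settings: the adjusted p was 0.0525 with array medians set equal and 0.0632 with quantile normalization, besides the fit with no filter. It was 0.204 without bud array 1, 0.204 without shoot array 1 and 0.0759 without shoot array 2.

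**Figure D1:**
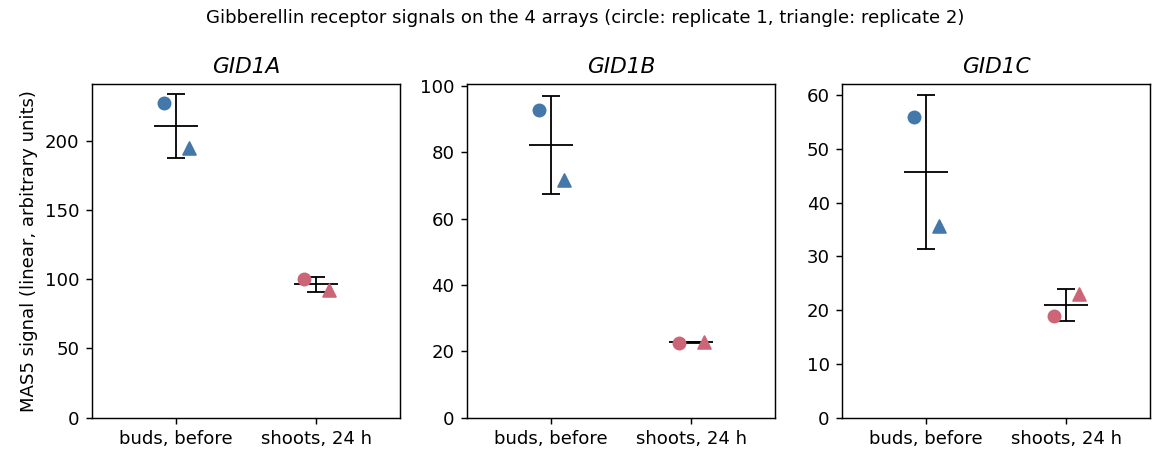
MAS5 signal (linear, arbitrary units, axes from 0) of each receptor gene on the 4 arrays, with circles for replicate 1, triangles for replicate 2, and a bar with whiskers for the mean ± SD of each group (n = 2). Each gene has its own axis; the shoot points lie below the bud points in all 3 panels, with the smallest gap for GID1C (35.6 in buds against 23.1 in shoots).

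The dimness of GID1B and GID1C in the shoots limits how exactly their folds are known. The filter on low values asked for a mean over the 4 arrays of at least 23.1, and the shoot means of GID1B (22.7) and GID1C (21.0) lay below it, so both genes were tested only because of their bud signals. In the fit with no filter GID1B passed (adjusted p = 0.0102) and GID1C did not. Their 4 shoot signals, from 18.8 to 23.1, were above the highest signal of 27 control probe sets for Bacillus genes, which was 10.2 on any array. Those controls do not give the background of each receptor probe set, so detection of these transcripts in shoots was not shown. With 16 added to every signal before the logarithm the fold was 2.52 for GID1B, 1.65 for GID1C and 2.02 for GID1A, and each still passed. The sizes of the folds of GID1B and GID1C are uncertain for this reason.

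The gap between replicate arrays was set beside that of other probe sets of like signal. The log2 gap between the bud arrays was 0.22 for GID1A, against a median of 0.24 among 3191 probe sets with a mean signal of 120 to 240. For GID1B it was 0.37 and for GID1C 0.65, so that of GID1C was the wider, against a median of 0.30 and a 90th percentile of 0.80 among 2976 probe sets of 30 to 60. Between the shoot arrays the gap was 0.11 for GID1A, below its class median of 0.22. It was 0.29 for GID1C and 0.0033 for GID1B, beside a class median of 0.28, so GID1B was far below it. The test draws part of its error from all probe sets of like signal, so it does not rest on the small gap of GID1B alone.

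For few probe sets was the fitted fall larger than for GID1B. A larger fall was fitted for 187 of the 13648 tested probe sets (1.37%), whereas 847 (6.21%) fell more than GID1A and 914 (6.70%) more than GID1C. The median log2 change of all tested probe sets was −0.06.

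**Figure D2:**
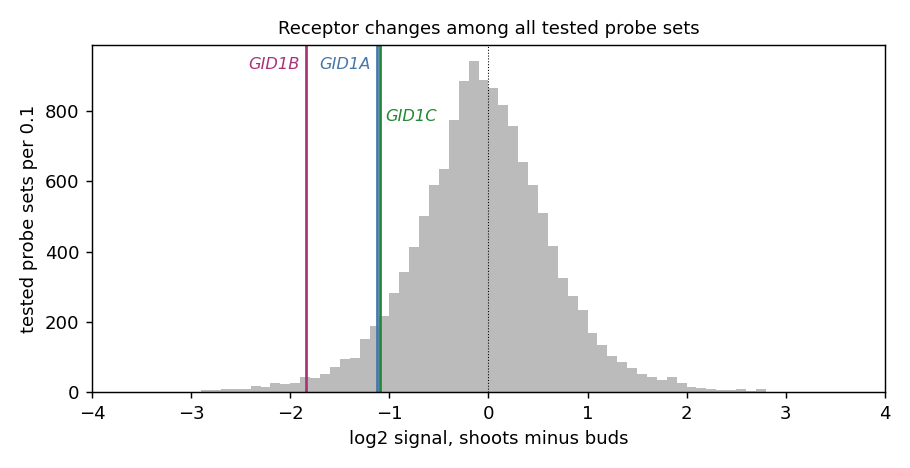
Number of tested probe sets in bins of 0.1 of the log2 signal in shoots minus buds, with a vertical line at the value of each receptor gene. GID1A (−1.13) and GID1C (−1.10) lie close together on the left flank, and GID1B (−1.85) lies further out, where 1.37% of probe sets remain.

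The 3 receptors were compared with each other by the log2 ratio of their signals within each array, whose shift between groups is the difference of their log2 changes; the ratio itself is not a ratio of transcript levels. For GID1A over GID1B the log2 ratio was 1.29 and 1.44 in buds and 2.14 and 2.02 in shoots, so that the fitted fall of GID1B was 1.64 times that of GID1A and the groups did not overlap. For GID1B over GID1C it was 0.73 and 1.01 in buds and 0.27 and −0.02 in shoots, again without overlap, and the fitted fall of GID1B was 1.68 times that of GID1C. For GID1A over GID1C it was 2.03 and 2.45 against 2.41 and 2.00, and here the groups overlapped, with a difference of −0.03. The exact two-sided permutation p was 0.333, 0.333 and 0.667 in that order (0.500, 0.500 and 0.667 adjusted over the 3 pairs). No p under 0.333 is possible with 2 against 2 arrays, so this test could not have shown a difference of any size, and the ratios stand as a description. With 16 added to every signal the difference between GID1A and GID1B was 0.32 instead of 0.72. The difference between GID1A and GID1C also depended on the setting. It was −0.29 with 16 added and −0.15 with quantile normalization, instead of −0.03.

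The samples also differed in ways that go with the groups. For actin, the control signal near the 3' end divided by that near the 5' end, a measure of how complete the labelled RNA is, was 1.66 and 1.38 in buds and 0.990 and 1.14 in shoots, and its part in the receptor results was not tested. The same ratio for GAPDH was 1.20 and 1.08 against 1.14 and 0.938. Of the tissue markers, 2 of 12 shoot apex, 2 of 7 expanded leaf and 0 of 6 flower, 0 of 7 vascular and 0 of 6 root loci had a named probe set. YAB3, a gene of organ polarity in young leaves, rose 1.74-fold (adjusted p = 0.0335), but its adjusted p was above the threshold in 5 of 13 alternatives, from 0.0512 with no filter to 0.220 without shoot array 1. The stem cell gene CLV3 stayed between 1.06 and 7.32, below the highest Bacillus control. The leaf genes RCA (469 and 526 in buds, 717 and 329 in shoots) and LHCB4.1 (639 and 431 against 849 and 710) did not pass. Fewer cells that express a receptor and less receptor RNA per cell cannot be told apart in these bulk samples.

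Lower receptor signals were also found when the arrays were scaled on other standards than their common mean. The first scaling set spiked-in control transcripts of bacterial and phage genes equal, on average, on all arrays. It gave log2 changes of −1.05 for GID1A, −1.76 for GID1B and −1.01 for GID1C. The 4 loci PEX4, AT4G34270, AT4G26410 and AT2G28390, which are widely used as reference genes in Arabidopsis, had log2 changes from −0.21 to 0.53, and none passed. Scaled on them, the receptors had changes of −1.32, −2.03 and −1.28. All 3 passed under both scalings, which were chosen after the data had been seen.

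**Figure D3:**
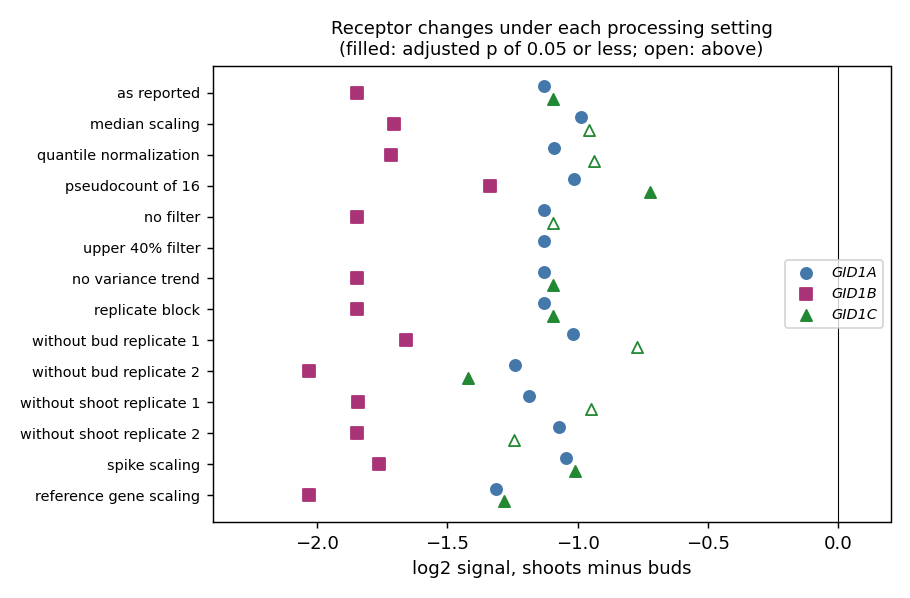
Log2 signal in shoots minus buds for the 3 receptor genes under the reported processing and 13 alternatives, filled where the adjusted p was 0.05 or less and open where it was above. All points lie below 0; those of GID1A and GID1B are all filled, 6 of the 12 alternative points of GID1C are open, and the stricter filter left out GID1B and GID1C.

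Downstream of the receptors, none of the 4 tested loci of the signalling list passed, where 12.0% of all tested probe sets were lower and 10.2% higher; with 4 loci this count is near that share. Their median log2 change was −0.37. SLY1, the F-box gene that acts on DELLA proteins bound by GID1, gave 112 and 128 in buds and 97.0 and 91.5 in shoots, a log2 change of −0.34 (adjusted p = 0.264). Its relative SLY2 gave 31.6 and 21.9 against 42.2 and 37.6, a log2 change of 0.60 (adjusted p = 0.181). SPY, which encodes an O-fucosyltransferase acting on DELLA proteins, had a log2 change of −0.49 (adjusted p = 0.191), and SEC, which encodes their O-GlcNAc transferase, −0.40 (adjusted p = 0.225). The intervals of these changes still allow a fall of 0.82 for SLY1, 1.07 for SPY and 0.90 for SEC on the log2 scale. That of SLY2 allows a rise of 1.28. The 5 DELLA repressor genes and the 25 listed genes of gibberellin synthesis and inactivation are not analysed here.

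Among genes that DELLA proteins are known to bind or regulate directly in seedlings, 4 of 11 listed loci had a named probe set, and 2 fell, 1 rose and 1 did not pass, beside 12.0% lower and 10.2% higher among all tested probe sets. XERICO, which encodes a RING-H2 protein that promotes abscisic acid accumulation, gave 531 and 360 in buds and 78.4 and 77.0 in shoots. Its groups were far apart, with a 5.62-fold fall (log2 change −2.49, standard error 0.235, adjusted p = 0.00145). IQD22, a gene of the calmodulin-binding IQ-domain family, fell 2.95-fold, from 175 and 137 to 51.4 and 53.7 (adjusted p = 0.00476). The third called locus, AT5G50915, went the other way and rose 2.07-fold from 60.6 and 52.6 to 132 and 104 (adjusted p = 0.0173; 0.130 without shoot array 1). AT2G31730 gave 42.9 and 36.2 against 72.7 and 45.3, a log2 change of 0.54 (adjusted p = 0.220). The 4 log2 changes were −2.49, −1.56, 0.54 and 1.05. The list was thus split, and its median of −0.51 lay near none of the 4 loci. The median of all tested probe sets was −0.06.

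Gibberellin also crosses membranes through some sugar and nitrate transporter relatives, and 3 such loci were listed. SWEET13, a sucrose transporter that also carries gibberellin, fell 2.37-fold, from 60.2 and 37.0 in buds to 15.6 and 25.5 in shoots (adjusted p = 0.0430). Its shoot mean of 20.5 lay below the filter's 23.1, so SWEET13 was tested only because of its bud signals. Its adjusted p was 0.182 without bud array 1, 0.232 without shoot array 1, 0.0604 with quantile normalization and 0.0815 with no filter. SWEET14, its close relative, read 1.15 and 2.00 against 4.83 and 9.72, all below the highest Bacillus control, and was not tested. AT1G68570, annotated as NPF3.1, gave 320 and 244 against 177 and 205, a log2 change of −0.55 (adjusted p = 0.102).

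Of genes that respond to gibberellin, the wall-loosening expansin gene EXPA8 fell 4.94-fold, from 135 and 144 in buds to 16.8 and 47.7 in shoots (adjusted p = 0.0103). The shoot arrays differed widely, and leaving out shoot array 1 gave a fold of 2.93, leaving out shoot array 2 one of 8.34. It was the only one of 6 listed expansion loci with a named probe set. Of 14 loci in the list of the GASA family, small cysteine-rich proteins often induced by gibberellin, 6 had a named probe set, 4 of these were below the filter, and 0 of the 2 tested passed. AT1G22690 gave 126 and 109 against 52.1 and 108, a log2 change of −0.64 (adjusted p = 0.201; 0.0313 without shoot array 2), and AT2G14900 gave 72.4 and 141 against 99.2 and 103. In all, of 70 listed gibberellin loci other than the receptors, 18 had a named probe set and 13 were tested. Of these 13, 4 fell, 1 rose and 8 did not pass, against 12.0% lower and 10.2% higher among all tested probe sets. SWEET13, 1 of the 4, was tested only because of its bud signals.

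**Figure D4:**
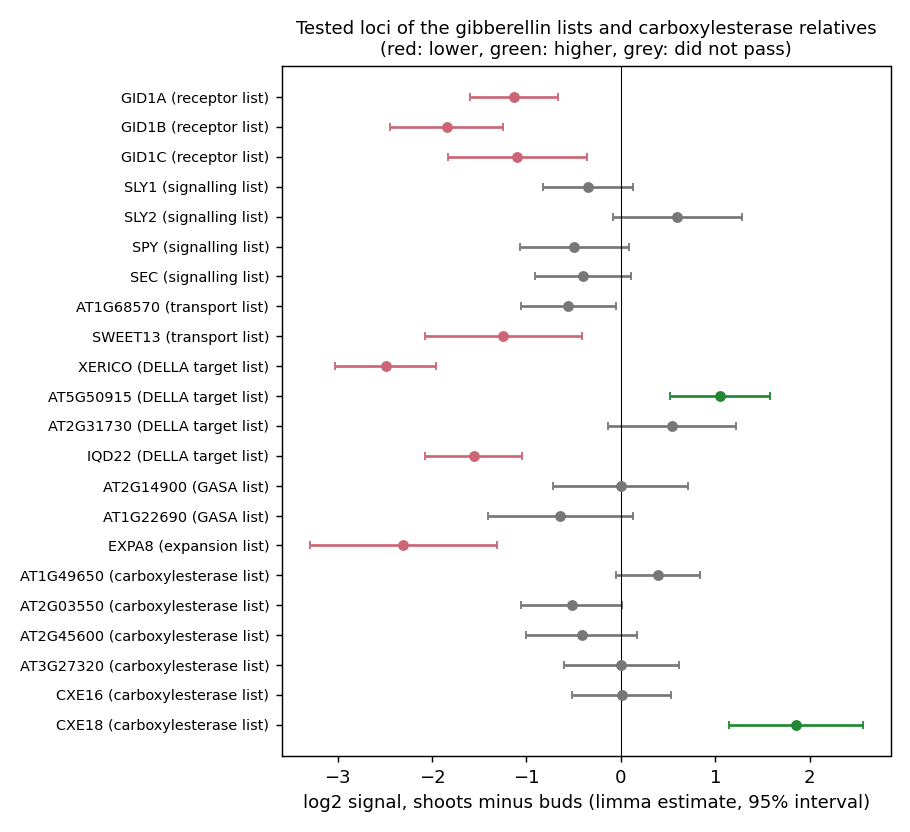
Limma estimates of the log2 signal in shoots minus buds with 95% intervals for the tested loci of the gibberellin lists and the carboxylesterase relatives, red where lower, green where higher and grey where the test was not passed. The receptors, XERICO, IQD22, SWEET13 and EXPA8 lie left of 0, while AT5G50915 and CXE18 lie to the right.

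The carboxylesterases are the enzymes to which the receptors are related. The list held 17 loci, of which 12 had a named probe set and 6 were tested; 1 of these rose and 5 did not pass, at a median log2 change of 0.01. With 12.0% of all tested probe sets lower and 10.2% higher, this count is near the background and says nothing particular of the list. CXE18 rose 3.62-fold, from 46.5 and 29.7 in buds to 167 and 108 in shoots (adjusted p = 0.00699; 0.0532 without shoot array 1). Among those that did not pass, AT2G03550 had a log2 change of −0.52 (adjusted p = 0.144), AT1G49650 of 0.39 (adjusted p = 0.182) and AT2G45600 of −0.42 (adjusted p = 0.279). CXE20, named after its values were seen, was below the filter with 22.9 and 19.2 in buds and 3.98 and 4.73 in shoots; it passed in the fit with no filter (adjusted p = 0.0282), but its shoot signals lay below the highest Bacillus control.

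The genes with the most similar profiles over the 4 arrays were found for each receptor by the root mean square distance between log2 signals, each taken relative to its own mean. The search ran over 7356 named tested probe sets, and each distance rests on 4 arrays in 2 groups. Nearest to GID1A were AT5G63200 (distance 0.0200), AT3G07310, AT3G22440, AT2G19130 and AT1G07650 (0.0399), with log2 changes from −1.20 to −1.05. For GID1B they were AT1G16260 (0.0531), AT3G01520, AT1G33050, AT1G22570 and AT5G16110 (0.0892), with changes from −1.90 to −1.70. AT1G33110 (0.0254), AT1G02060, AT5G43740, AT3G03180 and AT1G58150 (0.0706) were nearest to GID1C, with changes from −1.11 to −1.03. Pearson's r with the receptor over the 4 arrays was, after rounding, at least 0.994 for all 15. These genes were picked as the nearest profiles, so a high r is no separate result.

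The receptors were not each other's nearest neighbours by this measure. The distances from GID1B to the other receptors mostly restate its larger fitted fall, so they are no separate result. GID1A and GID1C were 0.208 apart, and 397 of the named probe sets lay closer to GID1A than GID1C did. GID1B was 0.364 from GID1A and 0.400 from GID1C, with 238 and 323 named probe sets closer to it. Counted from the other side, 1477 named probe sets lay closer to GID1A, and 1494 closer to GID1C, than GID1B did.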

How the data were processed

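Total RNA was isolated with a column kit and labelled with biotin from the 3' end, per the labels' protocols. The deposited values are linear probe set intensities which the authors computed with the MAS5 method; the submitters' processing notes name GCOS as the software, and its version is not given in the sources used here. The trimmed mean of each array was 100.0 in the deposited intensities, so arrays share a common target. Replicates are numbered in the labels, which do not name separate plants; p-values thus cover only the differences among these 4 arrays, possibly technical ones, and 2 arrays per group limit the precision.

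Control probe sets (64) were left out. Log2 intensities of the 13648 probe sets in the upper 60% by mean were compared by lmFit and eBayes of limma 3.58.1 (R 4.3.3), with an intensity trend, Benjamini-Hochberg adjustment and a threshold of 0.05. Fold changes are ratios of geometric means. Of 22746 probe sets, 13436 matched 1 locus through the platform annotation and a TAIR10.1 gene table. The fit was tested on simulated data whose noise was normal and set by signal level alone. That test does not show the error rate of the fit on these arrays. Members and 18 gene lists were chosen with earlier results of these data known. Named genes were the receptors, the listed gibberellin loci, up to 4 loci of each other list by adjusted p, and 5 nearest profiles per receptor. Of the lists, those of other hormone receptors, flower, vascular, root and wound response genes had no named probe set. Alternatives are given in the closing section.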

Additional observations from a re-analysis of the deposited data

How the results depend on the processing

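The falls of GID1A (log2 −1.32 to −0.99 over 13 alternatives) and GID1B (−2.03 to −1.34 over 12) passed under every alternative run. GID1C was lower under all 12 but missed the threshold under 6. These were −0.96 with array medians set equal, −0.94 with quantile normalization, −1.10 with no filter, and 3 of the 4 fits without 1 array. All 4 of those fits together spanned −1.42 to −0.77. GID1B and GID1C had no value under the filter that kept the upper 40%. A replicate block was fitted on numbers that the titles give and nothing else pairs. The replicate differences of buds and shoots had a correlation of 0.225 across probe sets. The block gave 2109 probe sets higher and 2548 lower, against 1388 and 1635 without it, and kept the 3 receptor calls. With the block, LHCB4.1 (adjusted p = 0.0181) and AT5G43740 (adjusted p = 0.0294), which are not called in the report, passed. AT5G43740 was near the threshold as reported (adjusted p = 0.0503). It also passed with no variance trend (adjusted p = 0.0318) and with scaling on reference genes (adjusted p = 0.0368). Without 1 array, 230 to 1181 probe sets were higher and 432 to 1468 lower, lowest without shoot array 1. Scaling on reference genes gave 878 higher and moved the median log2 change from −0.06 to −0.25; the share of higher calls was 45.9% as reported, 61.1% with array medians set equal and 27.4% with reference genes. Called loci of the gibberellin lists outside the receptors numbered 5, against 4 with quantile normalization or no filter and 3 with the stricter filter, which left SWEET13 and EXPA8 out; without 1 array they numbered 3 to 6, and the cause was not tested. The differences between receptors kept their sign with quantile normalization and with a pseudocount; setting array medians equal cannot change them. Dim signal limits GID1B and GID1C in the shoots.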
